A study of Mus musculus with 54 samples.

Results

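Neural stem cells (NSC) grown from mouse embryonic stem (ES) cells were compared with undifferentiated ES cells at day 0, gene by gene, by the level of polyadenylated RNA. A gene was included when it reached 1 FPKM (fragments per kilobase scaled to library size, a unit read from the values) in 2 or more of the 7 columns of the deposited table. This left 12511 genes of 39056 entries, and 4 of the 54 samples of the series enter the comparison. The NSC column is 1 library, from 46C cells of strain 129/Ola, an ES line with GFP knocked into Sox1. They spent 6 days in N2B27, a serum-free medium, GFP+ cells were sorted by flow cytometry, and the sorted cells were expanded in N2B27 with EGF and FGF-2 until RNA was taken at passage 15. The day 0 column is the authors' mean of 3 libraries of wild-type ES cells of strain 129S1/SVImJ, 1 from line CJ7 and 2 from line JF4, kept in serum with LIF, a cytokine that sustains self-renewal. The other columns are given beside them as values: ES cells 2, 4 and 6 days after LIF withdrawal (lines CJ7, JF4 and J1), mesendoderm (ME) sorted by GFP in T, and neural progenitors (NPC), which are 46C cells sorted for Sox1-GFP after 6 days in N2B27 and not expanded. NSC and ES day 0 thus differ in cell line, strain, medium and passage as well as in cell type, and these cannot be told apart here. The NSC library is a single culture from a sorted and expanded population.

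Neural stem cells divide while keeping the ability to form neurons, astrocytes and oligodendrocytes. In culture, EGF and FGF-2 hold them in a state that resembles radial glia, the elongated cells that line the developing brain and guide newborn neurons. ES cells instead hold the pluripotent state through a network of transcription factors around Oct4 (gene Pou5f1), Sox2 and Nanog, and Sox2 is shared by both kinds of stem cell.

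Fabp7, Ptn, Olig2 and Bcan are markers of NSC, and the sequences before their starts are shown because these 4 genes are the markers followed through the text. Each run is the 250 bases directly upstream of the start in RefSeq, build GRCm38.p6, read along the gene's strand. Capitals mark TTGGC on either strand, the half-site of nuclear factor I (NFI) proteins, of which Nfia and Nfib are described below.
Fabp7, chr10:57784673-57784922, plus strand: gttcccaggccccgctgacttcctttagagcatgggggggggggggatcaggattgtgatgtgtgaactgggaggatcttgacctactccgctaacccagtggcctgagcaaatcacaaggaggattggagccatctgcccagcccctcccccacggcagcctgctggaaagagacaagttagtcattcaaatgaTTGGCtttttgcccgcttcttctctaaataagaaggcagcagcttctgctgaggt
Ptn, chr6:36810180-36810429, minus strand: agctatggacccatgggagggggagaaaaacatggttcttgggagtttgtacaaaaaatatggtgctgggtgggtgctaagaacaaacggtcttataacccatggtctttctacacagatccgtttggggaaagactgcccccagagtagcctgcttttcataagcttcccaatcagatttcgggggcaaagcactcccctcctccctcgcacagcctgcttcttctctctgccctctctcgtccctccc
Olig2, chr16:91225300-91225549, plus strand: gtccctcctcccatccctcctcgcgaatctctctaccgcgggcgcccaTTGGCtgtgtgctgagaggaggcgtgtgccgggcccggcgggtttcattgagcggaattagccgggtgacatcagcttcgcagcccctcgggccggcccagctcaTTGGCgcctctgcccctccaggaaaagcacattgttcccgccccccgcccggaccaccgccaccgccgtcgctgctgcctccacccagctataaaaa
Bcan, chr3:88000357-88000606, minus strand: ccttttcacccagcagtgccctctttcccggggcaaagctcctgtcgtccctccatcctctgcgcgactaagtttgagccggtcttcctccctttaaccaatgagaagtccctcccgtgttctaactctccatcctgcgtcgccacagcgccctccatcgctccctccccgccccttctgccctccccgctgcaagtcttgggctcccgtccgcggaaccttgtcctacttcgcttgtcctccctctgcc
The half-site occurred 1 time before Fabp7, 2 times before Olig2 and 0 times before Ptn and Bcan, while 41.5% of 32851 RefSeq promoter windows of this length held at least 1. The E-box CANNTG, read by basic helix-loop-helix factors such as Olig2, occurred 2 times before Fabp7 and 0 times before the other 3, against 66.2% of all windows with at least 1. The SOX core ACAAT occurred 1 time each before Fabp7 and Olig2 and 0 times before Ptn and Bcan, against 27.7% of all windows. Both strands were searched for each motif, and the matches are descriptions of these letters only. The upstream run of Olig2 was the richest in G and C of the 4, at 66.8%, and that of Ptn the poorest, at 52.0%.

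Fabp7 encodes a brain fatty acid binding protein of radial glia. It read 0.477 FPKM at day 0, 0.843, 1.99 and 2.27 at days 2, 4 and 6 after LIF withdrawal, 1.23 in ME, 225 in NPC and 1227 in NSC. Its level was thus low in the ES columns and in ME, intermediate in NPC and highest in NSC, a difference of 9.70 log2 units from day 0 on the log2(FPKM + 1) scale, which is used for all differences here and understates the change of genes near 0. Ptn, the secreted heparin-binding growth factor pleiotrophin, read 1885 FPKM in NSC and 452 in NPC, against 1.37 at day 0, 10.1, 4.23 and 5.19 at days 2, 4 and 6 and 1.16 in ME, a difference of 9.64. Its NSC level was the highest of the named nuclear genes called higher by the limit given below. Olig2, a basic helix-loop-helix factor of ventral progenitors and the oligodendrocyte lineage, read 12.0 FPKM at day 0, 0.0374, 3.68 and 2.27 at days 2, 4 and 6 after LIF withdrawal, 0 in ME, 0.227 in NPC and 211 in NSC, a difference of 4.03. Day 0 was the second-highest column of Olig2, and since only the mean of 3 libraries is given, which of them carried this level cannot be seen. Bcan encodes brevican, a proteoglycan of the brain matrix. It read 169 FPKM in NSC and 0.525 in NPC, against 0.125 at day 0, 0.144, 0.0454 and 0.0741 at days 2, 4 and 6 and 0 in ME, and because it reached 1 FPKM only in NSC the filter left it out. Its levels nevertheless differed by 7.24 log2 units between NSC and day 0.

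Of the 12511 genes, 2486 (19.9%) were higher in NSC by at least 1 log2 unit and 2066 (16.5%) were lower by at least 1; these are the genes called higher and lower below. The median difference over all genes was 0.06, and the middle 90% lay between -2.22 and 2.32. At 2 log2 units the counts were 846 and 742. No test was possible with 1 library against a mean column, so the calls rest on size alone. Counts in the gene lists below are to be read beside 19.9% higher and 16.5% lower over all genes. Counts near these shares show nothing particular to a list. As a measure of replicate spread, the other expression table of the series holds 2 wild-type 46C libraries at each of days 2 and 4 of retinoic acid treatment. There 1.69% of 15705 genes differed by at least 1 log2 unit between the 2 libraries at day 2 and 2.19% at day 4, with SDs of the difference of 0.34 and 0.35. That spread is between libraries of 1 line in 1 laboratory set and does not cover differences between lines. The same table also holds libraries of knockout clones of Haunt, the noncoding RNA that the series is about. Ranges over the retinoic acid libraries given below include these clones unless wild type is stated. In bulk RNA, fewer cells of a type and less RNA per cell cannot be told apart. Of 521 short entries with a value in the NSC library, 18 lay on the best-fitting line of steps between low values. That line put 1 FPKM at about 34.5 reads per kilobase. It was the best of many length offsets (240 bases), and the same search found 12 entries in NPC, 9 in ME and 10 at day 4. The depth of the NSC library is thus a rough estimate, and that behind the day 0 mean is unknown. The values of genes just inside the filter were 1.00026 FPKM for Hist1h1d and 1.00052 for Erich2 in their second-highest column, and those just outside were 0.999858 for Gpt and 0.999819 for Cygb.

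**Figure D1:**
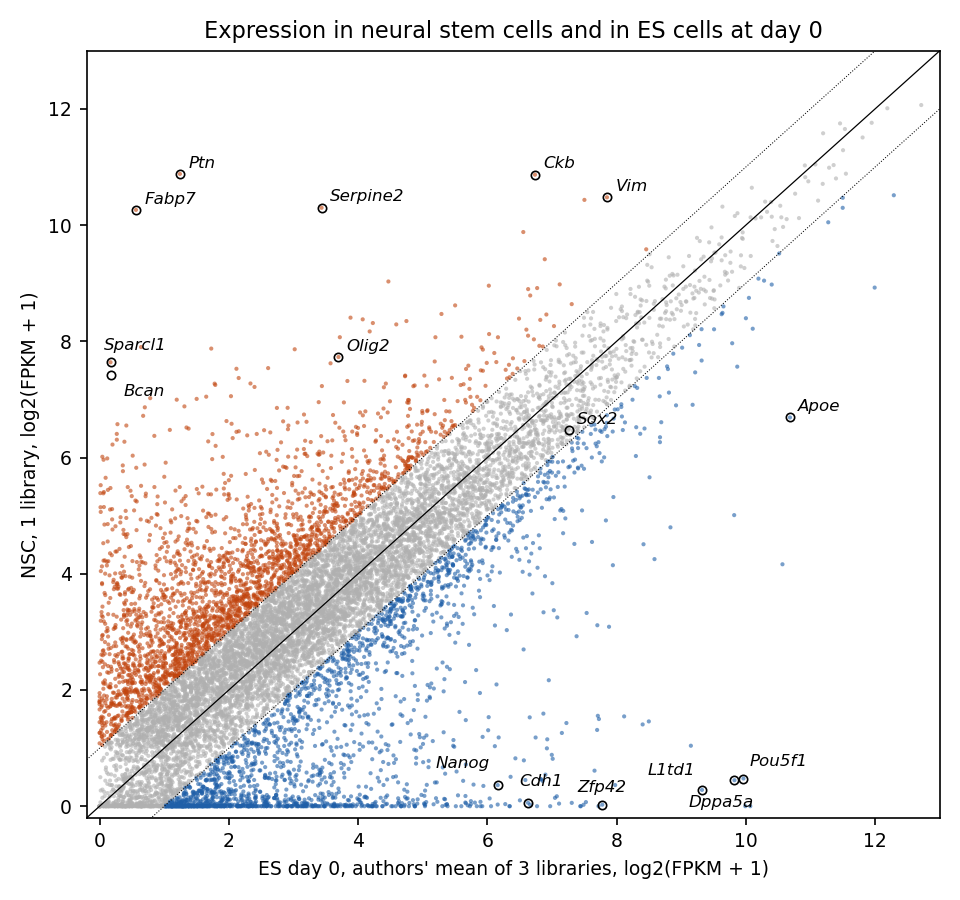
Each point is a gene that passed the filter, with its level at day 0 (horizontal axis, authors' mean of 3 libraries) and in the NSC library (vertical axis), both as log2(FPKM + 1). Orange and blue points lie at least 1 log2 unit above or below the diagonal (2486 and 2066 genes, dotted lines), circles mark genes named in the text, and Bcan, the white circle, did not pass the filter.

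Genes of radial glia and neural stem cells were mostly higher in NSC. Of 30 in the list 24 passed the filter, 22 were called higher and 0 lower, and the median difference was 3.70 (1.73 against NPC), against 0.06 over all genes and 19.9% of all genes called higher. The markers above belong to this list, which was drawn up knowing the cell type. Gpm6b, a membrane glycoprotein of neural cells, read 0.211 FPKM at day 0, 9.17 in NPC and 94.3 in NSC. Ptprz1, the receptor phosphatase that binds pleiotrophin, read 0.202, 5.38 and 83.8 in the same columns, and Slc1a3, the glial glutamate transporter GLAST, 3.34, 2.66 and 183. Ptn and its receptor were thus both higher in NSC than in NPC, and Slc1a3 was near its day 0 level in NPC. Sox9, which directs the glial fate, went from 0.282 FPKM at day 0 to 6.23 in NPC and 57.2 in NSC. The intermediate filament genes Nes and Vim, both standard markers of neural precursors, reached 522 and 1425 FPKM from 21.1 and 229.8 at day 0. Vim is not particular to neural cells, and it read 1394 FPKM at day 6 of LIF withdrawal and 1186 in NPC. Sox2 was not called: its levels were 152 FPKM at day 0, 52.8, 13.6 and 17.2 at days 2, 4 and 6 after LIF withdrawal, 13.8 in ME, 89.5 in NPC and 88.1 in NSC, a difference of -0.78. Prom1, the surface protein CD133, was the other member of the list between the limits, at 5.29 and 8.12 FPKM.

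Several genes of this list separated the expanded NSC from the freshly sorted NPC. Sox1, the gene that carries GFP in 46C cells and by which both populations were sorted, read 21.8 FPKM in NPC and 0.910 in NSC, with at most 0.827 in the other columns. It did not pass the filter, since only NPC reached 1 FPKM. Hes5, a Notch target, read 7.33 FPKM in NPC and 0.422 in NSC. Nr2e1 (Tlx), a receptor of adult neural stem cells, stood at 0.136 FPKM in NSC. Pax6, Sox3 and Msi1, all of early neuroepithelium, were above day 0 in NSC (17.7, 14.8 and 21.9 FPKM) and higher still in NPC (55.9, 34.3 and 102). The NFI factors, which accompany the onset of gliogenesis, went the other way: Nfia read 0.825 FPKM in NPC and 15.4 in NSC, and Nfib 0.352 and 30.6, with under 1 FPKM in every other column, so that neither passed the filter.

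**Figure D2:**
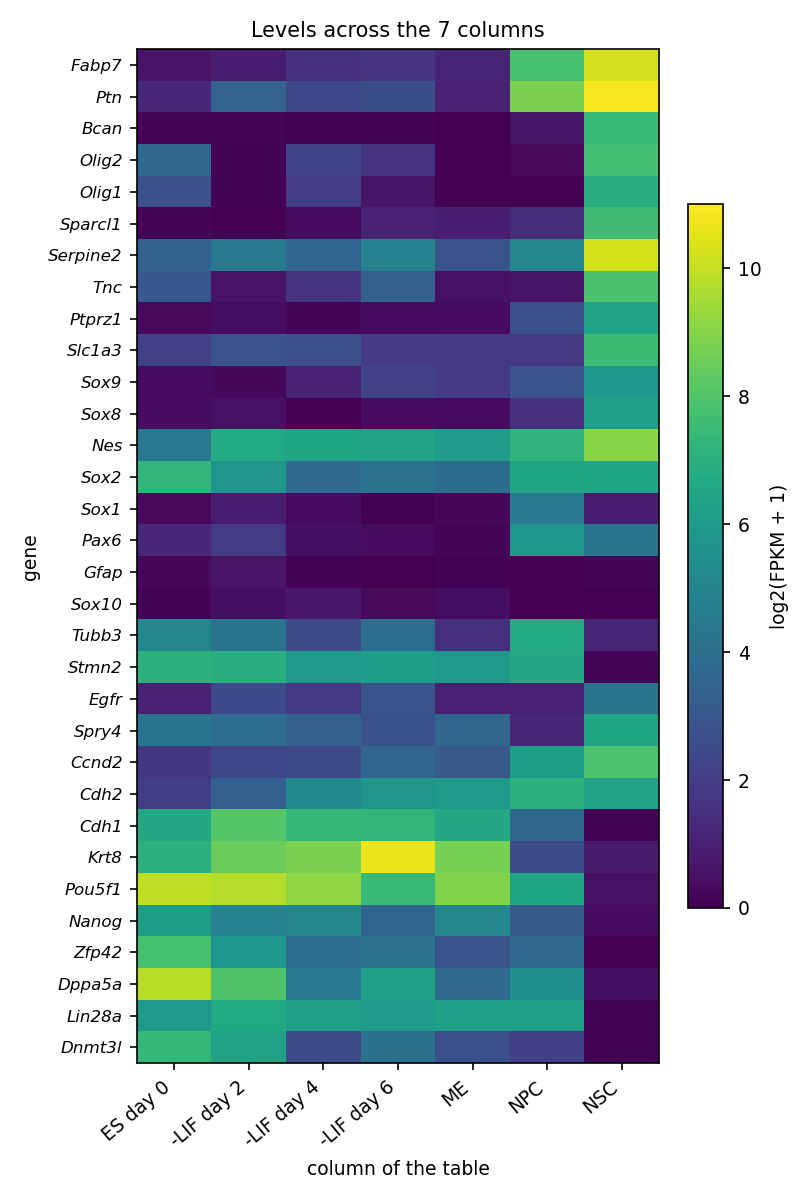
Levels of 32 genes in the 7 columns, as log2(FPKM + 1) by colour; columns of ES day 0 and of days 2 and 6 without LIF are the authors' means, the others single libraries. The upper rows (Fabp7 to Slc1a3) are brightest in NSC, the lower rows (Pou5f1 to Dnmt3l) are dark there, and Sox1 and Tubb3 are brighter in NPC than in NSC.

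The largest differences among genes of at least 10 FPKM extended beyond that list. After Fabp7 and Ptn came Sparcl1, a secreted relative of Sparc made by astrocytes and radial glia, with 198 FPKM in NSC and 1.70 in NPC, against 0.124 at day 0, 0.0175, 0.305 and 1.14 at days 2, 4 and 6 and 0.917 in ME, a difference of 7.47. Tmem176b, a membrane protein of the ion channel type, read 0.560 FPKM at day 0, 1.27 in NPC and 238 in NSC (7.26). Serpine2, the protease inhibitor protease nexin 1, read 9.81 FPKM at day 0, 20.8, 10.9 and 28.2 at days 2, 4 and 6 after LIF withdrawal, 6.09 in ME, 33.9 in NPC and 1258 in NSC, a difference of 6.86. Chst2, a sulfotransferase that acts on glycans, went from 0.721 to 129 FPKM, Spon1, the matrix protein F-spondin, from 0.332 to 92.8, and Olfm2, a secreted olfactomedin, from 0.595 to 104. All 3 were below 10 FPKM in each other column. Mid1, a microtubule-associated ubiquitin ligase, differed by 6.16, but it read 171 FPKM in NPC, 259 in ME and 116 in NSC, the columns from the 2 reporter lines, and at most 3.70 in the 4 columns from CJ7, JF4 and J1. In the retinoic acid libraries of 46C, wild type and Haunt knockout, it lay between 255 and 447 FPKM.

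The 12 named nuclear genes called higher with the highest NSC levels included Ptn, Fabp7, Serpine2, Vim and Nes, described above. The other 7 each read 64.0 FPKM or more at day 0. Ckb, the brain creatine kinase, read 106 FPKM at day 0, 117 in NPC and 1867 in NSC, so that NPC was close to day 0. Dbi, the acyl-CoA binding protein, read 180.2, 157 and 1382 FPKM, and Fabp5, a further fatty acid binding protein, 64.0, 221 and 496. Igfbp2, which binds insulin-like growth factors, stood at 117, 115 and 680.4. The scaffold gene Akap12 (766 FPKM) and the kinase gene Map4k4 (942) were already expressed at day 0 (351 and 93.1). Bex2 read 504 FPKM in NSC and 519 in NPC, against 138 at day 0.

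A further set was at 1 FPKM or more only in NSC and is therefore not among the 12511 genes. It held 534 entries, of which 58 reached 10 FPKM. The other columns each had 88 to 345 such entries, with 1 to 16 at 10 FPKM or more. After Bcan the highest named protein genes were Acsbg1, a long-chain acyl-CoA synthetase of brain (80.8 FPKM), the neuronal pentraxin Nptx1 (67.8), the metalloprotease Adam12 (56.2), the growth factor gene Fgf1 (49.0), the adhesion molecule Chl1 (48.5), the potassium channel gene Kcnd3 (47.5) and the LIM protein gene Lmcd1 (42.9). The highest of these in any other column was Adam12 at day 6, with 0.748 FPKM. The unnamed locus XLOC_014621 read 81.3 FPKM in NSC. The small nucleolar RNA Snora33 was listed at 549.9 in NSC and at 0 elsewhere, but small RNAs vary widely between columns here, as described below.

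The NSC column did not carry the full programme of a mature glial or neuronal type. Of 15 astrocyte genes 10 passed, with 4 called higher and 3 lower (median 0.87). The median depended on the filter. It was -1.05 over the 5 genes that reached 5 FPKM in 2 columns. Over the 12 that reached 1 FPKM in 1 column it was 1.62, with 6 higher and 3 lower. Sparcl1, described above, had the highest difference of this list (7.47). Over all genes 19.9% were called higher and 16.5% lower. The defining astrocyte filament gene Gfap was at 0.117 FPKM and the water channel gene Aqp4 at 0.198, while Aldoc, the brain aldolase, went from 6.16 at day 0 to 97.5. S100b, listed at 0 in all other columns, read 3.82 FPKM. Apoe, the apolipoprotein of astrocytes that is also abundant in ES cells, was lower: 1642 FPKM at day 0, 463 in NPC and 102 in NSC. Of 14 oligodendrocyte genes 5 passed, with 3 called higher and 0 lower (median 1.07). Over all 14, with no filter, the median was 0.00, with 4 called higher and 1 lower. Sox8 was the furthest, from 0.305 to 76.3 FPKM, whereas Sox10 was listed at 0 and Pdgfra and Mbp stood at 0.271 and 0.0413 FPKM. The others called higher were Nkx2-2, a ventral progenitor factor (0.194 and 1.51 FPKM), and Cnp, a myelin enzyme also found in other cells (3.04 and 10.2). The high Olig1 (115 FPKM) and Olig2 thus stood beside low levels of most genes of oligodendrocyte precursors and myelin.

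Neuronal genes were mostly low in NSC, with 13 of 20 under 1 FPKM. Of these 20, 12 passed, with 1 called higher and 6 lower (median -0.70, but -0.02 over all 20 and -3.07 against NPC). The neuronal tubulin gene Tubb3 read 34.6 FPKM at day 0, 109 in NPC and 1.17 in NSC, and Stmn2, a regulator of microtubules in growing axons, 131, 99.1 and 0.105. The neurofilament genes Nefl and Nefm read 1.29 and 3.40 FPKM in NSC against 131 and 238 in NPC. These genes were thus also expressed in the ES column, and NSC was the lowest of the 7 columns for Tubb3, Stmn2, Nefl and Nefm. The exception was Map2, a microtubule protein of dendrites, at 1.60 FPKM at day 0, 16.3 in NPC and 89.4 in NSC. Summed over the 20 genes, the level was 256 FPKM at day 0, 695 in NPC and 109.8 in NSC.

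Markers of other cell types were mostly low in NSC. Members called higher are given with their values, and the others at 1 FPKM or more in NSC are not all named. Of 12 fibroblast and feeder genes, 7 were under 1 FPKM in NSC, and of the 10 that passed 1 was called higher (Col3a1, 7.99 FPKM) and 5 lower, with a sum over the list of 264 FPKM at day 0 and 55.0 in NSC. The contractile genes Acta2 and Tagln read 20.5 and 49.6 FPKM at day 0 and 0.112 and 0.129 in NSC. All 11 microglia and blood genes were under 1 FPKM in NSC and 9 were listed at 0. Of 8 endothelial genes 4 passed, with 1 called higher (Kdr, 2.05 FPKM) and 2 lower, and Emcn, which did not pass, read 9.28 FPKM in NSC and at most 0.0133 elsewhere. Of 10 neural crest genes 7 passed, with 2 called higher and 3 lower, and 8 were under 1 FPKM in NSC. The 2 called higher, Twist1 (31.8 FPKM) and Ets1 (7.23), are also expressed in many mesenchymal cells, and the crest factors Sox10 and Foxd3 were listed at 0. Of 12 mesendoderm genes 11 were under 1 FPKM in NSC (0 of 11 that passed called higher and 3 lower), and of 18 extraembryonic endoderm genes 12 were (of 9 that passed 2 called higher and 2 lower). The 2 called higher were the basement membrane collagen genes Col4a1 (9.36 FPKM at day 0 and 66.0 in NSC) and Col4a2 (6.81 and 27.6). The endoderm list summed to 1741 FPKM at day 0, 585 in NPC and 289 in NSC. Apoe, given above, is on this list and made up most of the sum at day 0 and in NPC. The fall in the sum is that of Apoe, and the other members together did not fall. The part of residual other cells in these levels was not tested.

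The matrix and surface of the cells differed in many genes. Of 20 genes of neural proteoglycan matrix 13 passed, with 8 called higher and 3 lower (median 2.84, but 1.07 over all 20 and 1.01 against NPC). The lectican genes Ncan and Vcan went from 1.29 and 5.03 FPKM at day 0 to 127 and 43.0 in NSC, and read 10.5 and 7.83 in NPC. The cartilage lectican gene Acan was lower, at 1.41 and 0.0490. Tnc, the glycoprotein tenascin C that binds lecticans, read 232 FPKM in NSC and 0.523 in NPC, against 7.11 at day 0, 0.494, 2.17 and 9.49 at days 2, 4 and 6 and 0.402 in ME, and Cspg5, neuroglycan C, read 18.6 FPKM in NSC against 0.309 at day 0. The RNAs of brevican, neurocan, tenascin C and Ptprz1 were thus each higher in NSC than in any other column. Midkine (Mdk), the relative of pleiotrophin, did not follow Ptn: 83.2 FPKM at day 0, 406 in NPC and 60.0 in NSC.

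Of 20 adhesion genes 17 passed, with 9 called higher and 3 lower. The median was 1.03, but 1.30 over all 20, 0.09 with the filter at 5 FPKM and -0.69 against NPC. The epithelial cadherin gene Cdh1 read 97.9 FPKM at day 0, 266, 161 and 144 at days 2, 4 and 6 after LIF withdrawal, 99.3 in ME, 11.7 in NPC and 0.0418 in NSC, a difference of -6.57. The neural cadherin gene Cdh2 read 3.17 FPKM at day 0, 129 in NPC and 79.7 in NSC, and Cdh4, the retinal cadherin, 0.482, 2.23 and 55.7. The neural cell adhesion gene Ncam1 stood at 4.27, 26.4 and 148 FPKM, and Astn1, which acts in the migration of neurons along glia, at 0.0412, 2.59 and 40.8. In the list of trophoblast and simple epithelium 10 of the 11 genes that passed were called lower and 0 higher (median -4.77, but -0.51 against NPC). The keratin genes Krt8 and Krt18 read 128 and 113 FPKM at day 0 and 0.761 and 0.375 in NSC, and Epcam, an epithelial surface protein, 115 and 0.351. All 12 members were under 1 FPKM in NSC.

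**Figure D3:**
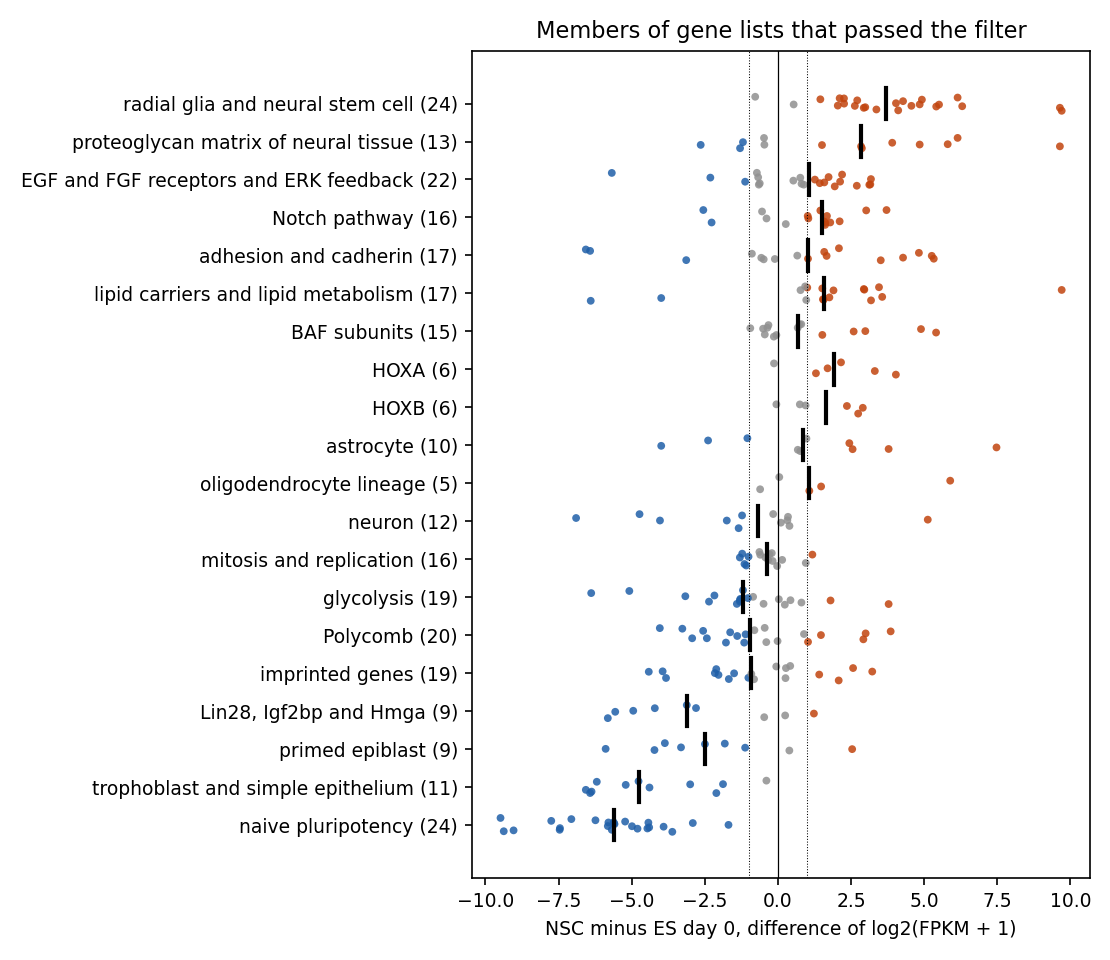
Differences NSC minus ES day 0 on the log2(FPKM + 1) scale (horizontal axis) for members of 20 gene lists that passed the filter, with the number of members in brackets; black bars are medians and dotted lines mark the limits of 1 log2 unit. Members of the top list lie almost wholly to the right, with a median of 3.70, and those of the lowest list wholly to the left, with a median of -5.61.

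Of 25 genes of EGF and FGF receptors and ERK feedback 22 passed, with 11 called higher and 3 lower (median 1.07). Against NPC 9 were higher and 6 lower by the same limit, with a median of 0.34. Among the receptors, Egfr read 17.7 FPKM in NSC and 1.10 in NPC, against 1.14 at day 0, 4.47, 2.59 and 6.50 at days 2, 4 and 6 and 1.04 in ME, a difference of 3.12, while Fgfr1 was between the limits (15.3 FPKM at day 0 and 27.5 in NSC) and Fgfr2 stood at 4.64 and 2.42. The feedback inhibitors of ERK signalling were higher: Spry1, Spry2 and Spry4 went from 3.35, 30.6 and 18.4 FPKM at day 0 to 37.8, 93.7 and 87.8 in NSC, and the phosphatase gene Dusp6 from 11.1 to 77.5. The ETS factors Etv1 and Etv5 stood at 19.9 and 110.3 FPKM in NSC against 1.31 and 32.6 at day 0, and Etv4 at 18.4 against 12.5. In NPC, Spry4 read 1.42, Dusp6 13.5 and Etv5 9.72 FPKM. The ligand genes on the list that passed were not higher: Fgf4, an ES cell ligand, went from 50.9 to 0.0104 FPKM, and Fgf5, of the epiblast, from 1.18 to a listed 0. Fgf1, which is not on this list, is described above.

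Of 20 Notch pathway genes 16 passed, with 11 called higher and 2 lower (median 1.51, but -0.22 against NPC). The receptors Notch1, Notch2 and Notch3 stood at 17.9, 7.62 and 10.7 FPKM in NSC and at 3.39, 3.26 and 4.70 at day 0, and Lfng, the sugar transferase that modifies Notch, at 30.5 against 2.89. The ligand gene Dll1 was higher in NPC (28.0 FPKM) than in NSC (5.45), whereas Jag1 was lower (5.15 and 10.1). Jag2 and the DNA-binding effector gene Rbpj were the 2 called lower, Rbpj from 40.5 FPKM at day 0 to 7.61. The targets Hes1 and Hey1 read 14.6 and 5.20 FPKM in NSC, 17.5 and 4.46 in NPC and 4.72 and 1.02 at day 0. Set against NPC, the median of this list was -0.22.

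The BMP and Wnt lists went both ways, beside 19.9% of all genes called higher and 16.5% called lower. Of 15 BMP genes 4 were called higher and 4 lower (median 0.08, but -0.21 against NPC), the ligand gene Bmp4 going from 28.8 to 0.663 FPKM and the target Id3 from 26.5 to 122, while Smad7, an inhibitor, went from 11.1 to 0.159. Of 22 Wnt genes that passed 9 were called higher and 6 lower (median 0.33, but -0.10 with no filter and -0.46 against NPC). The receptor gene Fzd1 read 0.252 FPKM at day 0, 2.93 in NPC and 30.4 in NSC. Of the nuclear effectors, Tcf7l2 was higher (4.88 and 28.5 FPKM) and Lef1, Tcf7 and Tcf7l1 were lower (0.350, 6.86 and 12.9 FPKM in NSC). The secreted inhibitors Sfrp1 and Sfrp2 marked NPC, at 78.8 and 345 FPKM, and stood at 6.08 and 9.99 in NSC.

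Lipid genes were mostly higher. Of 19 listed genes, 17 passed, with 12 called higher and 2 lower (median 1.56). The desaturase genes Scd1, Scd2, Fads1 and Fads2 read 11.5, 38.1, 6.00 and 9.49 FPKM at day 0 and 95.9, 354, 75.7 and 123 in NSC. All 4 lie on chromosome 19 and make unsaturated fatty acids. The cholesterol synthesis gene Sqle stood at 63.9 FPKM in NSC against 16.4 at day 0. Fabp3, the heart fatty acid binding protein, was lower, from 89.7 FPKM at day 0 to 0.0725, so that within this small family Fabp7 and Fabp5 were high in NSC and Fabp3 was high in ES cells. Of 15 transporters of glutamate, GABA and amino acids 10 passed, with 4 called higher and 4 lower (median 0.58, but 0.91 over all 15, 0.06 against NPC and -0.38 with the filter at 5 FPKM). The GABA transporter gene Slc6a11 read 12.0 FPKM in NSC and under 1 in every other column.

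Glycolytic genes were lower as a group. Of 19 that passed 2 were called higher and 11 lower (median -1.20, but -0.59 against NPC), against 16.5% of all genes called lower. The glucose transporter gene Slc2a3 read 207 FPKM at day 0, 165, 277 and 318 at days 2, 4 and 6 after LIF withdrawal, 96.2 in ME, 128 in NPC and 1.48 in NSC, a difference of -6.39, and Slc2a1 went from 128 FPKM at day 0 to 13.3. The platelet phosphofructokinase gene Pfkp went from 68.4 to 1.05 FPKM and the muscle form Pfkm from 9.02 to 33.8. The abundant enzymes Pkm, Ldha, Aldoa and Eno1 stood at 429, 275, 295 and 164 FPKM in NSC against 1057, 561, 727 and 402 at day 0. Aldoc and Pfkm were thus the isoforms called higher within families whose other listed members were lower in NSC. Gapdh read only 10.4 to 23.2 FPKM in the 7 columns but 2189 to 3398 in the other table of the series, so its value here cannot be taken as its level.

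Genes of naive pluripotency were lower throughout. Of 26 in the list 24 passed the filter, 0 were called higher and 24 lower, and the median difference was -5.61, but -1.67 against NPC. Prdm14 and Tcl1, the remaining members, reached 1 FPKM only at day 0 (2.07 and 12.5) and were listed at 0 in NSC. Pou5f1, which encodes Oct4, read 0.391 FPKM in NSC and 91.0 in NPC, against 997 at day 0, 885, 579 and 177 at days 2, 4 and 6 and 486 in ME, a difference of -9.49. Nanog read 70.5 FPKM at day 0, 28.1, 33.4 and 10.5 at days 2, 4 and 6 after LIF withdrawal, 33.6 in ME, 7.62 in NPC and 0.286 in NSC, a difference of -5.80. For both genes NSC was the lowest column and NPC the second lowest. Dppa5a, a gene restricted to pluripotent and germ cells, read 0.364 FPKM in NSC and 42.0 in NPC, against 905 at day 0, 245, 22.2 and 72.5 at days 2, 4 and 6 and 13.1 in ME, a difference of -9.38, and L1td1, an RNA-binding protein, 639 FPKM at day 0, 73.0 in NPC and 0.215 in NSC. Zfp42 (Rex1) went from 219 to 0.0186 FPKM, Tdgf1, the Nodal coreceptor Cripto, from 179 to 0.0172, and Dppa3, a maternal factor, from 183 to 0.0502. Of the 26 genes 22 were under 1 FPKM in NSC, and the exceptions were Trim28, a widely expressed corepressor (448 FPKM at day 0 and 138 in NSC), Klf2 (1.03), Klf4 (1.06) and Nr0b1 (1.27). The summed level of the list was 4460.1 FPKM at day 0, 842 at day 6 of LIF withdrawal, 584 in NPC and 145 in NSC, of which Trim28 made up nearly all.

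Of the primed epiblast genes, which mark the later pluripotent state, 9 passed, with 1 called higher and 7 lower (median -2.50, but -1.43 against NPC). The de novo methyltransferase gene Dnmt3b read 141 FPKM at day 0 and 66.0 in NPC and differed by -5.89 log2 units between NSC and day 0, and Otx2, a factor of epiblast and forebrain, went from 4.65 to a listed 0. Pou3f1 (Oct6), which is also a neural and glial factor, was the one called higher, from 4.58 to 31.4 FPKM. Beyond these lists, the most negative differences among genes of at least 10 FPKM included Sfn (14-3-3 sigma), an epithelial cell cycle regulator (567 FPKM at day 0, 2180.1 at day 4 and 1.06 in NSC), and Chchd10, a mitochondrial protein (251 and 0.287). They also included the ribosomal protein copy Rpl34-ps1, the microRNA gene Mir703 and the small nucleolar RNAs Snora64 and Snora75. Mir703 was listed at 0 in NSC and between 128 and 5095 FPKM in the other columns, and Rpl34-ps1 at under 1 FPKM in NSC, NPC, ME and day 2 and at 1072 at day 0. Genes with near-identical copies and very short RNAs can be split unevenly in counting, and the differences of these 4 are uncertain.

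Regulators of chromatin differed in both directions, beside 19.9% of all genes called higher and 16.5% called lower. Of 9 DNA methylation genes 1 was called higher and 4 lower (median -0.37, but -0.17 against NPC): Dnmt3l, the cofactor of de novo methylation, read 157 FPKM at day 0 and 0.0406 in NSC, and Tet1 28.1 and 2.15, while Tet3 was higher, at 0.485 and 8.29. Dnmt1 and Dnmt3a were between the limits, at 117 and 26.0 FPKM in NSC. Of 20 Polycomb genes 5 were called higher and 10 lower (median -0.96, but -0.58 against NPC). Those higher included the complex 1 subunits Bmi1 (1.52 and 35.3 FPKM), Cbx6, Cbx8 and Ring1, and those lower included Cbx7 (22.3 and 0.416) and the complex 2 genes Jarid2 (118 and 14.5), Mtf2, Eed and Suz12. The core enzyme gene Ezh2 was between the limits, at 139 and 105 FPKM. Of 15 subunits of the BAF chromatin remodeller that passed 5 were called higher and 0 lower (median 0.67, but 0.41 over all 16 and -0.26 against NPC). They were Dpf3 (0.284 and 53.4 FPKM), the ATPase gene Smarca2 (1.03 and 59.2), Smarcc2, Smarcd3 and Dpf1, while the neuronal subunit gene Actl6b stood at 0.111 FPKM.

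Of 9 oncofetal genes of the Lin28, Igf2bp and Hmga group 1 was called higher and 6 lower (median -3.12, and -3.81 against NPC). Lin28a, the RNA-binding protein that blocks let-7 maturation, read 58.4 FPKM at day 0, 104, 78.5 and 59.7 at days 2, 4 and 6 after LIF withdrawal, 77.5 in ME, 76.1 in NPC and 0.0538 in NSC, and Lin28b 6.57 FPKM at day 0, 23.6 in NPC and 0.0844 in NSC. Igf2bp1 and Hmga1 went from 49.8 and 185 FPKM at day 0 to 0.646 and 9.02, and Mycn from 106 to 1.27. In the other 6 columns Lin28a, Lin28b and Igf2bp1 lay between 6.57 and 104 FPKM, so NSC stood apart from NPC as well as from the ES columns. Hmga2, an architectural chromatin protein of fetal stem cells, was the one called higher, at 4.45 FPKM at day 0 and 11.8 in NSC. Against NPC, however, all 9 genes were lower in NSC by at least 1 log2 unit, Hmga2 included.

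Genes of mitosis and replication were mostly between the limits, as were most genes that passed the filter. Of 16, 1 was called higher and 5 lower (median -0.38), and the proliferation marker Mki67 read 104 FPKM at day 0 and 202 in NSC. Among 14 D cyclin and inhibitor genes that passed 5 were called higher and 5 lower (median 0.67, but 0.05 against NPC). Ccnd1 and Ccnd2, the cyclins that respond to growth factors, went from 18.8 and 2.31 FPKM at day 0 to 107 and 234, while Ccnd3 went from 82.2 to 18.6. Cdk6, one of the partner kinases, read 5.13 FPKM at day 0 and 0.117 in NSC, and Cdk4, the other, 96.8 and 110.1. The inhibitor genes Cdkn1a, Cdkn1b and Cdkn2a were higher, at 67.7, 30.3 and 43.8 FPKM against 9.56, 7.38 and 11.0.

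Position along the body axis was read from homeobox genes. In the HOXA cluster 6 of 12 genes passed, with 5 called higher and 0 lower (median 1.93, but 1.00 over all 12 and 0.36 against NPC). Hoxa2 read 0.0810 FPKM at day 0, 24.6 in NPC and 16.7 in NSC, and Hoxa3 0.0210, 3.56 and 9.13. Hoxa5, which did not pass the filter, stood at 9.22 FPKM in NSC and at most 0.572 elsewhere, and Hoxa7 at 5.12. Hoxa9, Hoxa10, Hoxa11 and Hoxa13 were listed at 0 in NSC. In the HOXB cluster 6 of 10 passed, with 3 called higher and 0 lower (median 1.65, but 0.68 over all 10 and -1.71 against NPC). Hoxb2, Hoxb3 and Hoxb4 read 6.08, 6.71 and 4.43 FPKM in NSC and 14.0, 10.8 and 8.28 in NPC. Hoxb7 and Hoxb8 were higher in NPC (14.5 and 9.77 FPKM) than in NSC (1.58 and 0.724). Of 9 HOXC genes 0 passed, and of 9 HOXD genes 1 did and was not called.

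**Figure D4:**
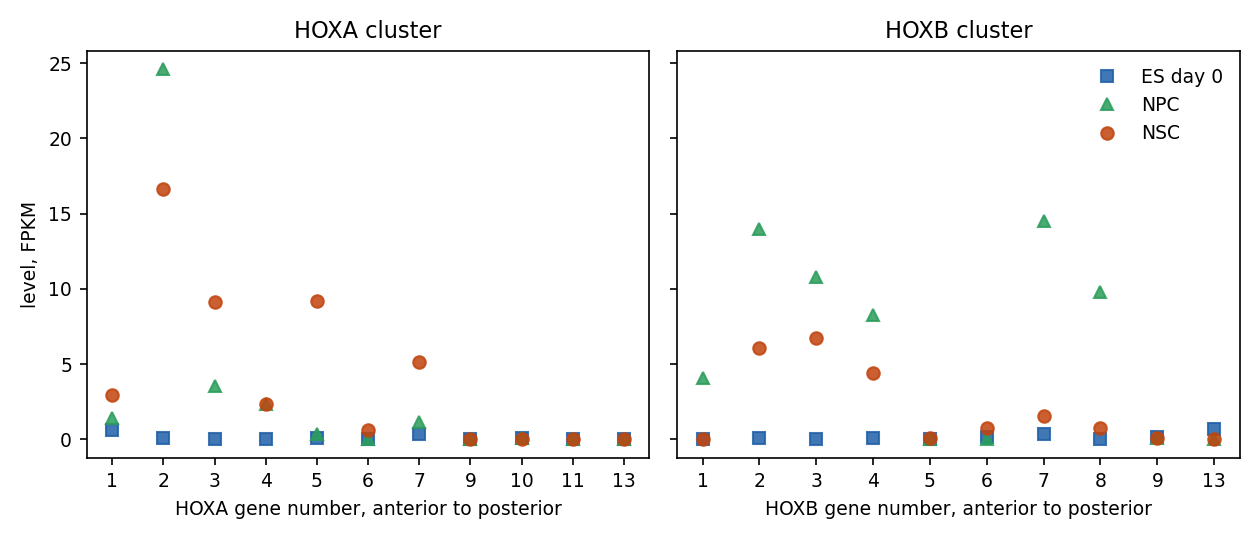
Levels in FPKM (vertical axis, shared by both panels) of the genes of the HOXA and HOXB clusters, ordered by number, at ES day 0 (authors' mean), in NPC and in NSC (1 library each). NSC points of HOXA are above 2 FPKM for genes 1 to 5 and 7 and at 0 from gene 9 on, and NSC points of HOXB lie below those of NPC for genes 1 to 4, 7 and 8.

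Haunt, the long noncoding RNA next to HOXA that the series is about, is listed as Gm15055 (mm9, chromosome 6, 52052948 to 52062531). It read 66.3 FPKM in NSC and 18.5 in NPC, against 53.7 at day 0, 4.13, 0.175 and 0.266 at days 2, 4 and 6 and 0 in ME, a difference of 0.30. NSC and ES day 0 thus had like levels and were the highest columns, with HOXA genes near 0 in the one and expressed in the other. The noncoding RNA Gm15051 (Hotairm1) read 1.48 FPKM at day 0, 16.0 in NPC and 117 in NSC, a difference of 5.57, and Skap2, on the far side of Haunt, 28.3, 22.2 and 150.3. Among the neighbours, Snx10, Hibadh and Tax1bp1 were between the limits, and the transcript 5730446D14Rik read 0.0199 at day 0 and 5.10 in NSC. Of the 7 listed genes that passed, 3 were called higher and 0 lower (median 0.30, but -0.20 against NPC).

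Regional factors of the brain gave a mixed picture. Of 27 forebrain and midbrain factors 9 passed, with 5 called higher and 2 lower (median 3.46, but 0.00 over all 27, 1.66 with the filter at 5 FPKM and -1.42 against NPC). Those higher were Emx2 (12.4 FPKM) and Lhx2 (12.7) of the forebrain, En1 (21.0) of the midbrain and hindbrain border, and Irx3 and Irx5 (17.4 and 13.1, against 91.5 and 36.5 in NPC). The forebrain factors Otx2 and Nkx2-1 were listed at 0. Of 25 factors of dorsoventral pattern 20 passed, with 8 called higher and 6 lower (median 0.30, but 0.08 over all 25 and -1.32 against NPC). Besides Olig1 and Olig2 those higher included dorsal genes such as Pax3 (2.57 FPKM, 28.9 in NPC) and Zic1 (9.81, 20.8 in NPC), and those lower included the Hedgehog target Gli1 (9.47 FPKM at day 0 and 0.110 in NSC).

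Of 19 genes of the retinoic acid response 13 passed, with 5 called higher and 4 lower (median -0.45, but -0.02 over all 19 and -0.76 against NPC). The shares over all genes were 19.9% and 16.5%. The retinoid binding proteins Crabp1 and Crabp2 read 11.1 and 9.63 FPKM at day 0, 1129 and 886 in NPC and 0.405 and 0.308 in NSC. The orphan receptors Nr2f1 and Nr2f2 and the cofactor Meis1 stood at 17.7, 14.7 and 15.4 FPKM in NSC against under 1 at day 0. Rarb, itself a target of retinoic acid, did not pass the filter and read 15.7 FPKM in NSC and at most 0.620 elsewhere.

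Set against NPC, which share the line and the sort, the genes called higher than day 0 with the largest further difference were Olig2 (7.43), Tnc (7.26), Olig1 (6.85), Tmem176b (6.72), Igfbp3 (6.44), Sparcl1 (6.21), Gas6 (5.72) and Slc1a3 (5.65). Olig1 was listed at 0 in NPC, so its difference there is no measure of fold. Igfbp3, which binds insulin-like growth factors, read 17.7 FPKM at day 0, 95.2, 208 and 103 at days 2, 4 and 6 after LIF withdrawal, 266 in ME, 2.67 in NPC and 317 in NSC and was thus also high in ME and after LIF withdrawal. Gas6, a ligand of the TAM receptor kinases, read 2.43 FPKM at day 0, 1.94 in NPC and 154 in NSC.

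Differences also followed chromosome 6. Over genes of at least 5 FPKM in the mean of the columns compared, the median difference between NSC and day 0 was 0.34 for the 375 genes of chromosome 6 and between -0.11 and 0.15 for each other autosome and X, with 0.07 over all. Against NPC it was 0.39 for the 371 genes of chromosome 6, of which 67.4% were higher in NSC, and between -0.14 and 0.08 for the others. In the NPC column the median for chromosome 6 was -0.10 against day 0. Along the chromosome, the 20 Mb windows from 80 Mb on had medians of 0.34 to 0.76 against NPC (30 to 72 genes each, 70.0% to 86.1% of them higher), and those from 20 to 80 Mb medians of -0.03 to 0.01. The first window, with 19 genes, had a median of -0.38. Against day 0 the pattern was not limited to the distal windows: NSC stood at 0.13, 0.39 and 0.62 in the 3 windows up to 60 Mb, at -0.85 from 60 to 80 Mb (24 genes) and at 0.29 to 0.59 from 80 Mb on. NPC stood at 0.40, 0.23, 0.30 and -0.93 in the first 4 windows and at -0.50 to -0.01 from 80 Mb on. Haunt, HOXA, Ptn and Ptprz1 lie before 80 Mb and Ccnd2, Cdkn1b, Tet3, Chl1, Lmcd1, Slc6a11, Slc2a3 and Nanog after it (mm9). Of these, Slc2a3 and Nanog were lower in NSC. The copy number of chromosome 6 was not measured, and its part in these values was not tested.

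**Figure D5:**
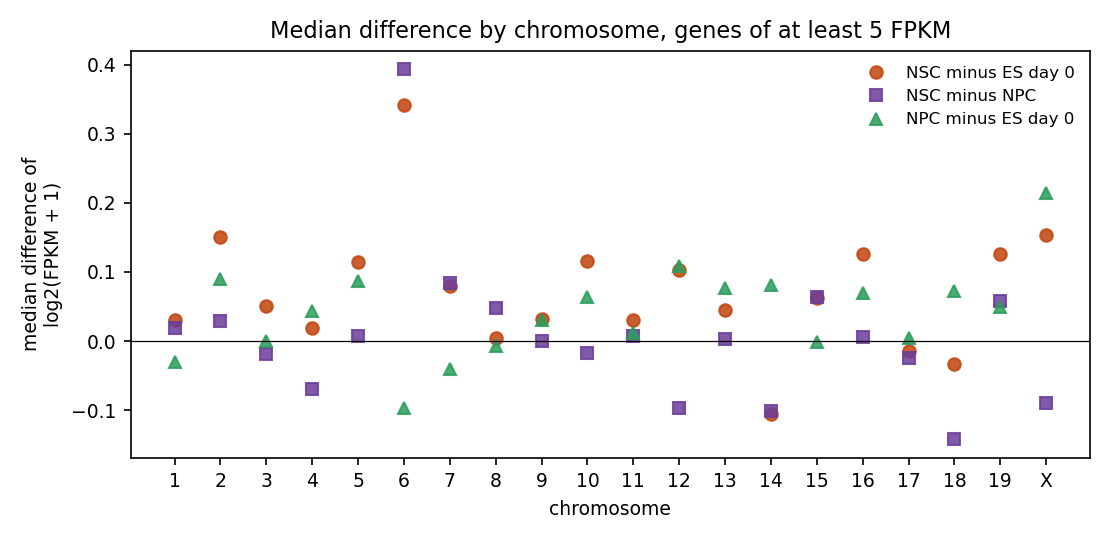
Median difference of log2(FPKM + 1) by chromosome (horizontal axis), over genes of at least 5 FPKM in the mean of the columns compared, for NSC minus ES day 0 (circles), NSC minus NPC (squares) and NPC minus ES day 0 (triangles). Chromosome 6 is at 0.34 and 0.39 in the comparisons with NSC and at -0.10 for NPC minus day 0.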

How the data were processed

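Poly(A) RNA was sequenced from stranded TruSeq libraries, per the labels' protocols. The authors deposited 1 table of expression values for the 7 columns, read as FPKM from the values. Build mm9, TopHat2 2.0.11, Bowtie 1.0.0, MACS 1.4.2 and CASAVA are listed, without roles, per the submitters' processing notes, and no source used here says which program gave the FPKM. ES day 0 and days 2 and 6 after LIF withdrawal are the authors' means of 3, 2 and 3 libraries, whose single values were not used here. NSC, NPC, ME and day 4 are 1 library each.

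The table has 39067 entries, and the 11 whose symbol occurs again were dropped. Genes of at least 1 FPKM in 2 or more of the 7 columns were kept, and the difference NSC minus ES day 0 was taken on log2(FPKM + 1). A gene was called at 1 log2 unit or more. No test, error or p-value can be had from 1 library against a mean. Named genes are the 4 markers, the 12 largest and 12 most negative differences among genes with a symbol (no XLOC, Gm or Rik name) of at least 10 FPKM in either column, the 12 highest NSC levels among genes called higher, the 10 highest entries of at least 1 FPKM in NSC only, the 8 genes called higher, with at least 10 FPKM in NSC, that stood furthest above NPC, and members of 42 gene lists. The ranking by NSC level left out mitochondrial genes and XLOC, Gm and Rik names. The members and lists were chosen with earlier results of these data known, and none is independent support. The lists held 606 genes, of which 7 were not in the table, and 40 stood in more than 1 list. The replicate spread comes from the wild-type libraries of a second deposited FPKM table, of wild-type and Haunt knockout cells treated with retinoic acid. Promoter sequences are those of RefSeq (GRCm38.p6), and gene positions from the table are in mm9. Alternatives were other pseudocounts, filters and scalings, leaving out unnamed loci, a higher fold and NPC as reference. The computation ran in Python 3.11.15 with pandas 2.3.3, numpy 2.4.6 and matplotlib 3.10.9 and was tested on simulated data.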

Additional observations from a re-analysis of the deposited data

How the results depend on the processing

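Over the pseudocounts and scalings tried, none of the 49 genes chosen by size or level changed sign (members of the lists were not recomputed one by one). A filter leaves a gene's own difference as it is. List medians changed sign over the pseudocounts, filters and scalings as follows. With the filter at 5 FPKM the medians of astrocyte genes (-1.05), amino acid transport (-0.38), endothelium (1.16) and extraembryonic endoderm (0.17) turned, with no filter those of the Wnt pathway (-0.10) and HOXD, at 1 FPKM in 1 column those of endothelium and HOXD, and with columns scaled to equal total that of housekeeping genes (from -0.05 to 0.10). With no filter the medians of list members were nearer 0 for forebrain and midbrain factors (3.46 to 0.00), oligodendrocyte genes (1.07 to 0.00), the proteoglycan matrix (2.84 to 1.07), HOXA (1.93 to 1.00), HOXB (1.65 to 0.68) and neuronal genes (-0.70 to -0.02), since low members then enter. The scaling to equal total moved the median of all genes from 0.06 to 0.20, and the share of called genes that were higher lay between 50.5% and 61.4% over the scalings, against 54.6%. A pseudocount of 0.1 gave medians of 4.22 for radial glia, -7.63 for naive pluripotency and -7.22 for trophoblast and epithelium, and 0.5 gave -6.40 and -5.52 for the last pair, since a lower pseudocount widens differences of low genes. With 5 FPKM in place of 1, 1612 genes were called higher, and at 2 log2 units 846 were higher and 742 lower. Against NPC in place of ES day 0, 1329 genes were higher and 1365 lower, the medians were 1.73 for radial glia, -1.67 for naive pluripotency and -0.51 for trophoblast and epithelium, and chromosome 6 lay 0.39 (0.385) above all genes (0.27 against day 0). Against NPC the medians of forebrain and midbrain factors (-1.42), HOXB (-1.71), the Notch pathway (-0.22) and adhesion (-0.69) and the differences of Mid1 (-0.56) and Bex2 (-0.0419) were below 0, as were the medians of dorsoventral factors, Haunt neighbours, the BMP and Wnt pathways and BAF subunits, while that of endothelium (0.47) was above 0. Of 489 values recomputed for named genes 386 moved by less than the replicate SD of 0.354. Many of these could not move, since filters and leaving out unnamed loci do not alter a gene's own difference. With pseudocounts of 0.1 and 0.5, 34 and 31 genes moved by more. With each scaling all 49 moved by less. Against NPC 36 moved by more and 2 changed sign. No paired analysis was possible because NSC is 1 library and day 0 a mean without its libraries. Leaving out a library was not possible for the same reason. The depth of the day 0 libraries is unknown, and 1 NSC library gives no measure of variation between cultures.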

Other observations

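Imprinted genes, which are expressed from 1 parental allele, differed in both directions. Of 20 listed genes, 19 passed the filter, with 4 called higher and 9 lower in NSC (median -0.91). The shares over all genes were 19.9% and 16.5%. The maternally expressed RNAs of the Dlk1 domain, Meg3, Rian and Mirg, read 15.3, 16.3 and 2.29 FPKM at day 0, 40.7, 52.9 and 3.09 in NPC, and 0.147, 0.122 and 0.0274 in NSC. NSC was the lowest column for each of the 3. In the retinoic acid libraries, which are of the same line 46C, Meg3 lay between 56.8 and 148 FPKM. Grb10, an adaptor that restrains growth factor receptors, read 33.0 FPKM at day 0, 176 in NPC and 0.593 in NSC, and Cdkn1c, a CDK inhibitor, 23.4, 158 and 4.95. Mest, a hydrolase gene on chromosome 6, was called higher (16.1 and 159 FPKM, with 376 in NPC), as were Ndn, Igf2r and Airn. The last pair share the Igf2r locus, and Airn runs antisense to Igf2r. No source used here states whether counting used strand, so reads of these overlapping genes may not be separated.

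Stress genes went both ways, beside 19.9% of all genes called higher and 16.5% called lower. Of 14 ATF4 and stress genes that passed 3 were called higher and 5 lower (median -0.33). The asparagine synthetase gene Asns read 143 FPKM at day 0 and 25.0 in NSC, and Trib3, a target of ATF4, 7.52 and 0.609, while Phgdh, of serine synthesis, read 40.2 and 110.2. The immediate early genes Jun and Egr1 read 7.18 and 4.61 FPKM at day 0 and 63.2 and 25.4 in NSC, but Fos 1.43 and 0.909. The Zscan4 genes, which mark rare ES cells of a cleavage-stage state, were listed at 0 in NSC, and Zscan4c, Zscan4d and Zscan4f read 2.70, 3.36 and 2.10 FPKM at day 0. They are near-identical copies, so the division among them is uncertain.

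Hprt, of purine salvage, read 95.2 FPKM at day 0 and 59.4 in ME, but 0.509 in NPC and 0.366 in NSC, and at most 0.147 in the retinoic acid libraries of 46C. It was thus low in each 46C library measured, neural or not, and line, strain and culture cannot be told apart here. The Y-linked genes Ddx3y and Eif2s3y read 9.58 and 21.2 FPKM at day 0, 1.28 and 4.00 in NPC and 0.488 and 1.06 in NSC. They also varied among libraries of 1 line. In the wild-type retinoic acid libraries Eif2s3y lay between 0.793 and 7.42 FPKM and Ddx3y between 1.01 and 2.24. With the Haunt knockout clones included, the lowest values were 0.344 and 0.227. The day 4 library of CJ7 read 2.26 and 1.62. In the housekeeping list 1 gene was called higher (B2m, 11.6 and 36.0 FPKM) and 1 lower (Hprt), with Actb at 988 and 938.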
